A study of Bos taurus with 6 samples.

Results

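The testis-specific serine kinases TSSK1B, TSSK2, TSSK3, TSSK4 and TSSK6 and the testis-specific kinase substrate TSKS were described in cattle testis before and after sexual maturity. These 6 genes were taken by name from the deposited table, in which they make up 6 of 47249 genes, and they hold 10 of the 108527 entries of the table of transcripts. The series compared physically healthy Wandong cattle of 2 ages, with no treatment named. They were immature calves of 3 months (spread 0.24 months) and andrologically mature bulls of 3 years (spread 0.014 years). These spreads are those of the paper's Methods, whereas its Results give 0.014 months for the calves and 0.24 years for the bulls. There were 3 animals per age and 1 library of total testis RNA per animal, freed of ribosomal RNA. The deposited values are FPKM, a level of fragments scaled to the length of the transcript and to the size of the library. Animals keep the numbers of the labels.

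TSSK kinases are small serine/threonine kinases that belong to the group of calcium/calmodulin-dependent kinases and are related to AMP-activated kinase. They are made in the haploid germ cells, the spermatids, during the remodelling of the round cell into a sperm. TSKS is a substrate and binding partner of TSSK1 and TSSK2, and the chaperone HSP90 keeps the kinases folded and active. In mice, loss of TSSK1 with TSSK2, or of TSSK6, makes males infertile.

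The labels were checked against marker genes. Markers of elongating spermatids (PRM1, PRM2, PRM3, TNP1, TNP2, ODF1, AKAP4 and SMCP) summed to an FPKM of 13882 to 16044 in bulls and of 1.27 to 1.45 in calves. In the library labelled calf 3, the 6 Sertoli cell markers summed to 14.8, against 1786 and 1456 in calf 1 and calf 2, with FSHR, WT1 and GATA4 listed at 0. The 5 Leydig cell markers summed to 0.484 there, against 1399 and 1137, with CYP11A1 and CYP17A1 listed at 0. All 8 brain markers were highest among the calves in calf 3, and their sum was 13853 there, against 7.47 and 9.48 in calf 1 and calf 2 and 10.6 to 17.8 in bulls. The library labelled calf 3 thus lacks most of these markers of its tissue, with SOX9 the exception among those of Sertoli cells (13.7, against 9.99 to 10.8 in bulls). The tests of the kinases and TSKS and the counts of the gene lists are given with and without it.

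All 5 kinases and TSKS were high in every bull and below an FPKM of 1 in every calf. Every bull exceeded every calf in 46.1% of the 18115 genes that passed a filter on low values and in 37.7% of the 44657 genes above 0 in any library. Among the tandem pair, TSSK1B (ENSBTAG00000045955) showed FPKM values of 0.182 (calf 1), 0.222 (calf 2) and 0.289 (calf 3) against 117 (bull 1), 129 (bull 2) and 121 (bull 3). Values below follow the same order of animals. TSSK2 (ENSBTAG00000048123) stood at 0.0872, 0.0868 and 0.239 in the calves and at 169, 169 and 180 in the bulls. The bulls differed little from each other, whereas in TSSK2 the library labelled calf 3 was the highest calf. The ratio of the bull mean to the calf mean was 527 for TSSK1B and 1252 for TSSK2, and without calf 3 it was 602 and 1983.

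TSSK3 (ENSBTAG00000020652) showed FPKM values of 0.542, 0.704 and 0.611 in the calves and 39.8, 34.5 and 34.4 in the bulls. TSSK4 (ENSBTAG00000002710), which binds the tail protein ODF2, had 0.491, 0.594 and 0.557 in the calves and 55.9, 57.1 and 58.7 in the bulls. For TSSK6 (ENSBTAG00000006649), which is needed for the packing of sperm chromatin in mice, the calves stood at 0.663, 0.768 and 0.747 and the bulls at 241, 183 and 154. The 3 bulls were closely grouped in TSSK4 and spread out in TSSK6. The ratio of the means was 58.5 for TSSK3, 105 for TSSK4 and 266 for TSSK6, and without calf 3 it was 58.2, 105 and 269.5.

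TSKS (ENSBTAG00000019179) showed FPKM values of 0.119, 0.284 and 0.0649 in the calves and 147, 141 and 175 in the bulls. It was lowest among the calves in calf 3, the opposite of TSSK1B and TSSK2. The ratio of the means was 988, and 764 without calf 3.

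**Figure D1:**
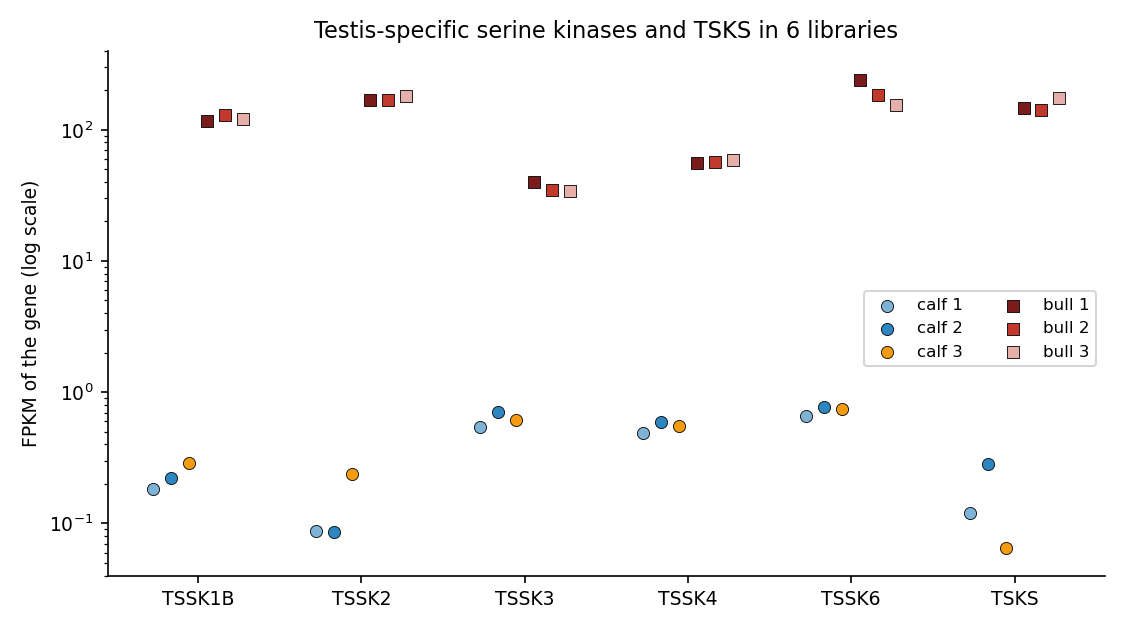
FPKM (log scale) of the 5 TSSK kinases and TSKS in each library, circles for calves and squares for bulls. Every calf lies below 1 and every bull above 30, and TSSK3 is the lowest of the 6 genes in bulls (34.4 to 39.8).

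The difference between the ages was tested with limma on log2(FPKM + 1), fitted over all genes that passed a filter on low values, with p-values adjusted by Benjamini-Hochberg over 18115 genes. A gene was called where the adjusted p was under 0.05 and the log2 fold change was 1 or more in either direction, and 35.7% of the genes tested were called higher in bulls. The kinases and TSKS passed the filter through the bulls alone, since no calf reached an FPKM of 1, so that a difference was bound to appear. The filter was therefore removed as an alternative. Over the 44657 genes above 0 in any library, 15.6% were called higher in bulls, and the 6 genes were called there too, with adjusted p-values between 6.03e-06 and 1.35e-05.

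TSSK2 had the highest log2 fold change of the 6 genes, 7.25 ± 0.14 (SE; adjusted p = 2.53e-06, limma), followed by TSKS with 7.07 ± 0.17 (SE; adjusted p = 2.98e-06). TSSK6 and TSSK1B followed with 6.79 ± 0.20 (SE; adjusted p = 4.98e-06) and 6.64 ± 0.14 (SE; adjusted p = 2.68e-06). The log2 fold changes of TSSK4 and TSSK3 were smaller, 5.23 ± 0.14 (SE; adjusted p = 3.98e-06) and 4.52 ± 0.16 (SE; adjusted p = 7.55e-06). Among all genes tested, ranked from the largest increase, TSSK2 was at place 68, TSKS at 84, TSSK6 at 111, TSSK1B at 127, TSSK4 at 397 and TSSK3 at 646. The added 1 draws these fold changes toward 0, most of all where the calves are lowest. With 0.01 added instead, TSSK2 had 10.34, TSKS 10.08, TSSK1B 9.0, TSSK6 8.01, TSSK4 6.69 and TSSK3 5.85, so that TSSK1B stood above TSSK6. Without calf 3, when 37.9% of genes were called higher and 13.6% lower, the 6 genes were still called, with log2 fold changes of 7.32 for TSSK2, 7.01 for TSKS, 6.80 for TSSK6, 6.67 for TSSK1B, 5.24 for TSSK4 and 4.52 for TSSK3. After quantile normalization, when 21.1% were called higher and 25.1% lower, the 6 genes kept their calls. For a single gene, the exact permutation test of 3 against 3 gave p = 0.1 (two-sided), the smallest it allows. In whole tissue, more spermatids and more RNA per spermatid cannot be told apart.

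Within the bulls, the FPKM levels fell in the order TSSK6 (193 ± 44.6, SD, n = 3), TSSK2 (172 ± 6.49), TSKS (154 ± 17.9), TSSK1B (122 ± 6.04), TSSK4 (57.2 ± 1.36) and TSSK3 (36.2 ± 3.04). The ranges of TSSK6 and TSSK2 overlapped, and TSSK6 was the higher in 2 of the 3 bulls. The TSSK6 value includes an assembled entry that covers all of NDUFA13. Its annotated transcript TSSK6-201 alone had 148 ± 34.1, under the means of TSSK2 and TSKS, and exceeded TSSK2 in bull 1 only. The ranges of TSSK2 and TSKS overlapped as well, but TSSK2 was the higher within each bull, by a factor of 1.15, 1.20 and 1.03. TSKS lay above TSSK1B in each bull, by a factor of 1.10 to 1.45. The step from TSSK1B to TSSK4 was the clearest, with ratios of 2.09, 2.25 and 2.06, and TSSK4 exceeded TSSK3 by 1.41, 1.65 and 1.70 times. The 5 kinases together, with their assembled entries, were 3.14 to 4.24 times as high as TSKS in the bulls.

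The spread among bulls was uneven. The coefficient of variation was 2.37% for TSSK4, 3.76% for TSSK2, 4.95% for TSSK1B, 8.40% for TSSK3, 11.6% for TSKS and 23.1% for TSSK6. Over the 2770 genes with a bull mean FPKM between 30 and 250, the median was 8.58%. A smaller coefficient than that of TSSK6 was found in 90.6% of these genes, and a smaller one than that of TSSK4 in 5.78%.

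In calves the order was different. The calf means were highest in TSSK6 (0.726 ± 0.0554, SD, n = 3), TSSK3 (0.619 ± 0.0809) and TSSK4 (0.547 ± 0.0520) and lowest in TSSK1B (0.231 ± 0.0539), TSKS (0.156 ± 0.114) and TSSK2 (0.138 ± 0.0880). The first 3 of these genes are those for which the table of transcripts holds an entry assembled from the reads beside the Ensembl transcripts. TSSK1B, TSSK2 and TSKS have 1 entry each, and for all 6 genes the gene value equals the sum of its entries (within 0.001). Of the 10 entries, 8 passed the filter, all of them through the bulls, so that a difference was bound to appear. These 8 were called higher in bulls, against 34.8% of transcripts tested. Without the filter, 8 of the 10 entries were called higher, against 8.37% of transcripts. The TSSK4 entries TSSK4-201 and TSSK4-OT1 were not called there.

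For TSSK3, the annotated transcript TSSK3-201 (chromosome 2, 121199686 to 121201566) showed FPKM values of 0.0171, 0.0103 and 0.253 in the calves and 36.8, 31.2 and 31.4 in the bulls. The other entry, TCONS_00170361, runs from 121176160 to 121207489 and covers 99.7% of BSDC1 and all of FAM229A. It had 0.525, 0.693 and 0.358 in the calves and 3.00, 3.29 and 3.06 in the bulls. The long entry thus made up 96.8%, 98.5% and 58.6% of the TSSK3 value in the calves, but between 7.55% and 9.54% in the bulls. On the log2(FPKM + 1) scale, TSSK3-201 rose by 4.97 ± 0.19 (SE; adjusted p = 1.22e-05, limma over 23212 transcripts) and the long entry by 1.44 ± 0.16 (SE; adjusted p = 0.000532). Without calf 3 the values were 5.07 and 1.36. After quantile normalization the long entry had 0.70 (adjusted p = 0.00808), under the fold change required. The ratio of bull to calf means was 354 for TSSK3-201 and 5.94 for the long entry, and for TSSK3-201 it was 2411 without calf 3.

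The table of transcripts gave TSSK6 the same structure. TSSK6-201 (chromosome 7, 3810680 to 3811501, a span of 822 bases) showed FPKM values of 0.0189, 0.0649 and 0.189 in the calves and 185, 141 and 118 in the bulls. TCONS_00323683 (3801573 to 3813363), which covers all of NDUFA13, had 0.644, 0.703 and 0.558 in the calves and 56.3, 42.4 and 35.7 in the bulls. It held 97.2%, 91.6% and 74.7% of the TSSK6 value in the calves. In the bulls its share was nearly constant, at 23.3%, 23.2% and 23.2%, while the level itself varied. Both entries were called higher in bulls, TSSK6-201 by 7.07 ± 0.21 (SE; adjusted p = 6.27e-06) and the assembled entry by 4.78 ± 0.21 (SE; adjusted p = 2.23e-05). Without calf 3 the values were 7.14 and 4.75.

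TSSK4 has 3 entries. TSSK4-202 (chromosome 10, 20952844 to 20955292) had 0.0323, 0.0558 and 0.155 in the calves and 55.0, 56.3 and 58.2 in the bulls, and carried 98.2% to 99.2% of the gene value there. Its log2 fold change was 5.73 ± 0.15 (SE; adjusted p = 4.89e-06), and 5.78 without calf 3. TSSK4-OT1, an assembled entry from 20947571 to 20952041 that ends before TSSK4-202 begins and covers all of CHMP4A, had 0.459, 0.538 and 0.401 in the calves and 0.342, 0.203 and 0.185 in the bulls. It held 93.4%, 90.6% and 72.1% of the TSSK4 value in the calves. It did not pass the filter, and without the filter its log2 fold change was −0.24 (adjusted p = 0.247). TSSK4-201 was listed at 0 in the calves and at 0.647, 0.590 and 0.304 in the bulls.

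**Figure D2:**
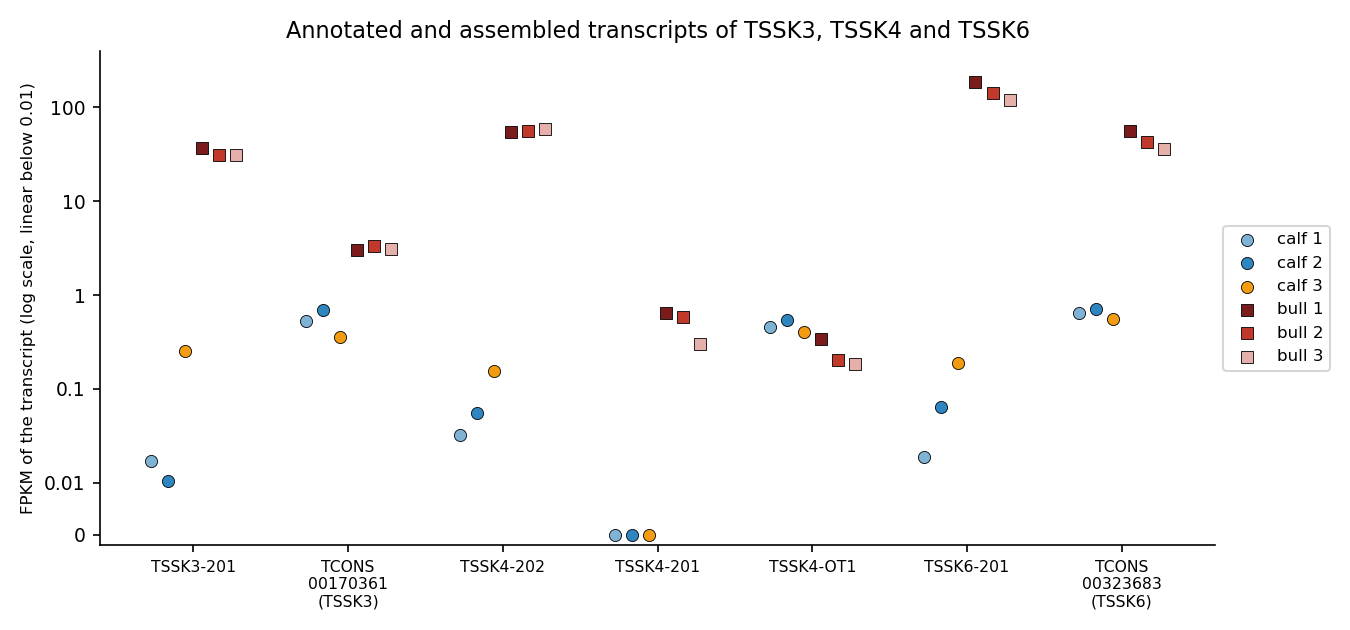
FPKM of each transcript entry of TSSK3, TSSK4 and TSSK6 (log scale, linear below 0.01), circles for calves and squares for bulls. Within each gene, the assembled entry lies above the annotated transcripts in every calf, and TSSK3-201, TSSK4-202 or TSSK6-201 lies highest in every bull, between 31.2 and 185.

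Among the calves, the main transcripts of the kinases were highest in the library labelled calf 3. TSSK1B-201, TSSK2-201, TSSK3-201, TSSK4-202 and TSSK6-201 showed FPKM values of 0.155 to 0.289 in calf 3 and 0.0103 to 0.222 in calf 1 and calf 2, and calf 3 was highest in 5 of 5. TSKS-201 was lowest there. Of the 535 transcripts with a bull mean of at least 30 and every calf below 1, 19.1% were highest in calf 3 among the calves and 38.5% were lowest. The part of tissue or depth in these low values was not tested. Ratios between bulls and calves rest on few fragments in the calves, and no error from counting can be given for them, since the tables hold no counts.

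TSSK1B and TSSK2 lie side by side on chromosome 17, at 72591117 to 72592556 and 72595819 to 72596895, with 3262 bases between them. The annotated neighbours on either side are DGCR2, 354 bases before TSSK1B, and ESS2, 102 bases after TSSK2. DGCR2 had a log2 fold change of 0.28 ± 0.37 (SE; adjusted p = 0.553) and ESS2 of 0.54 ± 0.17 (SE; adjusted p = 0.0368), and neither was called. The tandem genes are close paralogs, and reads that match both cannot be assigned with certainty. The FPKM of TSSK2 was 1.45, 1.31 and 1.49 times that of TSSK1B in the bulls.

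The named genes that overlap or lie nearest to the kinases and TSKS numbered 16, of which 4 were called higher and 3 lower in bulls, against 35.7% and 9.61% of all genes tested. Without calf 3 the counts were 4 and 3. BSDC1 and NDUFA13, which share their interval with the assembled entries of TSSK3 and TSSK6, had log2 fold changes of −0.08 (adjusted p = 0.663) and 0.14 (adjusted p = 0.642). FAM229A, inside the deposited interval of TSSK3, rose by 5.03 ± 0.29 (SE; adjusted p = 4.44e-05). Beside TSSK6, CILP2, which passed the filter through the bulls alone, was called higher (3.61, adjusted p = 0.000229, and 0.000719 without the filter), and beside TSSK3, MARCKSL1 was called lower (−2.08, adjusted p = 0.0486) but not without the filter (adjusted p = 0.0743), with calf 3 at 257 and the other calves at 35.8 and 54.2.

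The interval of TSSK4 (20947571 to 20955298) overlaps TINF2, MDP1 and CHMP4A, and NEDD8 ends 2174 bases before it. TINF2, a component of the telomere complex, was called higher (1.51, adjusted p = 0.000725), though neither after quantile normalization nor with Ensembl transcripts only (0.50, adjusted p = 0.179). CHMP4A, of the membrane-cutting ESCRT machinery, was called lower (−2.34, adjusted p = 0.000277), and so was NEDD8, a ubiquitin-like protein (−5.08, adjusted p = 6.46e-06). TSKS (chromosome 18, 56116159 to 56132067) lies between CPT1C, with 0.06 (adjusted p = 0.947), and AP2A1, a subunit of the clathrin adaptor, which rose by 2.33 (adjusted p = 0.00102). The deposited values give no strand, so whether reads from overlapping genes were kept apart could not be checked.

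**Figure D3:**
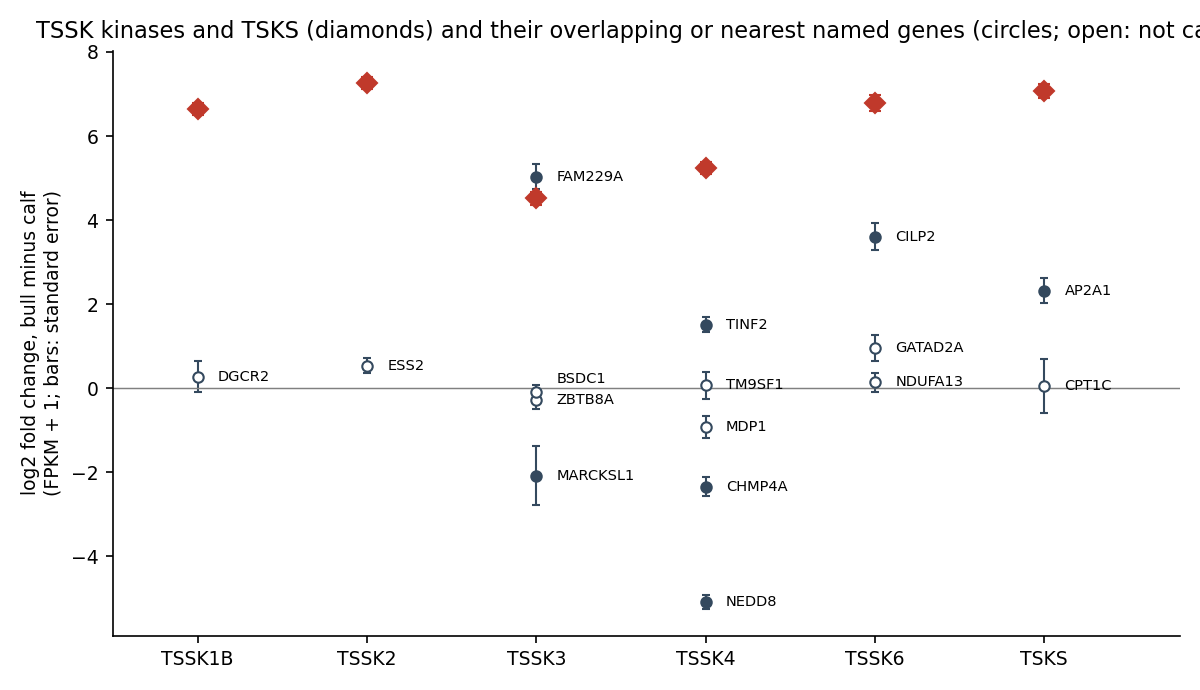
Log2 fold change (bull minus calf, FPKM + 1) with standard error of the TSSK kinases and TSKS (diamonds) and of the genes that overlap them or lie nearest (circles, filled where called). The neighbours range from −5.08 for NEDD8 to 5.03 for FAM229A, while the diamonds lie between 4.52 and 7.25.

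Chaperones that fold kinases were called in both directions. Of 9 listed chaperone genes, 4 were called higher in bulls and 2 lower, and 3 were not called, against 35.7% and 9.61% of all genes, and the median log2 fold change was 0.41 against 0.43 over all genes tested. The counts were also 4 and 2 without calf 3. TSACC, a co-chaperone that activates TSSK6, showed FPKM values of 2.30, 3.18 and 1.71 in the calves and 82.0, 89.6 and 75.4 in the bulls. Its log2 fold change was 4.64 ± 0.20 (SE; adjusted p = 1.58e-05). HSPA1L and HSPA2, the HSP70 forms of germ cells, rose by 5.15 (adjusted p = 7.07e-05) and 4.10 (adjusted p = 0.000215).

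HSPA8, the general HSP70 form, was called lower (−1.22, adjusted p = 0.00453). HSP90AA1 rose from 170 ± 52.5 in calves to 351 ± 16.0 in bulls (SD, n = 3; log2 fold change 1.08, adjusted p = 0.0157), whereas HSP90AB1 fell from 400 ± 201 to 123 ± 5.07 (−1.53, adjusted p = 0.0334). In HSP90AB1, calf 3 stood at 171, far below calf 1 (481) and calf 2 (548). Without calf 3, HSP90AA1 had 1.32 (adjusted p = 0.000104) and HSP90AB1 −2.05 (adjusted p = 1.41e-05). Both lost their calls when any one of the other 5 libraries was left out, and HSP90AB1 lost its call without the filter as well (adjusted p = 0.0542). After quantile normalization HSP90AA1 was no longer called (0.91, adjusted p = 0.0715). The 3 genes not called, CDC37, STIP1 and PTGES3, had 0.41, 0.35 and 0.15, and after quantile normalization −0.37, −0.44 and −0.65.

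Among 9 listed partners and substrates of the kinases, 7 were in the table under the names searched, and 3 of these were called higher and 1 lower, against 35.7% and 9.61% of all genes. The counts were the same without calf 3. Their median log2 fold change was 0.81. ODF2, a protein of the outer dense fibres of the tail that binds TSSK4, showed FPKM values of 8.21, 10.03 and 7.93 in the calves and 393, 544 and 692 in the bulls (log2 fold change 5.77 ± 0.25, SE; adjusted p = 1.48e-05). CREM, a transcription factor that switches on spermatid genes, rose by 5.13 (adjusted p = 4.27e-06). Its relative CREB1 had −0.87 (adjusted p = 0.00348), under the fold change required.

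The catalytic subunits of protein phosphatase 1, to which TSKS binds, differed from each other. PPP1CC, the form that sperm contain, rose from 49.0 ± 2.83 to 225 ± 20.3 (SD, n = 3; log2 fold change 2.17, adjusted p = 0.000106). PPP1CB fell from 137 ± 46.0 to 51.0 ± 3.56 (−1.36, adjusted p = 0.00576), and PPP1CA had −0.64 (adjusted p = 0.108). PDPK1, a kinase reported to phosphorylate TSSK3, had 0.81 (adjusted p = 0.0143) and was not called. After quantile normalization PPP1CA (−1.34) and CREB1 (−1.42) were called lower.

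TSSK1, TSSK2 and TSKS gather in a ring at the base of the tail that is derived from the chromatoid body, an RNA-rich granule of spermatids, and that lies beside the annulus. All 7 listed chromatoid body genes were called higher in bulls, against 35.7% of all genes, with a median log2 fold change of 4.48. PIWIL1, a piRNA-binding protein that passed the filter through the bulls alone, rose by 6.49 (adjusted p = 9.04e-06, and 2.13e-05 without the filter) and the RNA helicase DDX25 by 5.61 (adjusted p = 0.000153). All 7 were lower in calf 3 than in both other calves, and without calf 3 the median was 3.28 with 7 called. DDX4, the VASA helicase of germ cells, was at 14.0 and 20.2 in the first 2 calves but at 0.0152 in the library labelled calf 3, and its log2 fold change was 4.53 with calf 3 and 3.15 without it. It lost its call when any one bull was left out.

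Unlike the 5 kinases, DDX4 was thus above an FPKM of 10 in both calf 1 and calf 2. Of 4 listed genes of the annulus, 2 were called higher and 1 lower, against 35.7% and 9.61% of all genes. Without calf 3 the counts were 2 and 0, against 37.9% and 13.6% of all genes. SEPT12 and SLC26A8 were called higher, by 6.10 (adjusted p = 9.63e-06) and 4.88 (adjusted p = 1.68e-05). Both passed the filter through the bulls alone and were called without it (adjusted p = 2.11e-05 and 3.92e-05). SEPT7, a septin of many tissues, was called lower (−1.59, adjusted p = 0.0451), but it had 73.8 in calf 3 against 20.7 and 20.9 in the other calves and was not called without calf 3 (−1.0), without any one bull or without the filter. SEPT4 had −0.92 (adjusted p = 0.226), and after quantile normalization −1.74 (adjusted p = 0.0470), which was a call.

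Kinases related to the TSSK family gave calls in both directions. Of 18 listed kinases related to AMP-activated kinase, 16 were in the table and tested, of which 3 were called higher in bulls and 2 lower, and 11 were not called, against 35.7% and 9.61% of all genes. Their median log2 fold change was 0.55. Without calf 3 the counts were 4 and 1 and the median was 0.61, against 37.9% and 13.6% of all genes. MELK, PASK and PRKAA1 rose by 2.55 (adjusted p = 0.00806), 2.497 (adjusted p = 0.000139) and 1.83 (adjusted p = 0.000209). NUAK1 fell by 2.90 on the log2 scale (adjusted p = 0.000298). PRKAA2, the other catalytic subunit of AMP-activated kinase, was called lower (−1.38, adjusted p = 0.0294), but neither without calf 3 (−0.92) nor without any one bull. After quantile normalization the calls were 3 higher and 4 lower, and the median was −0.19.

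A second group of kinases known from germ cells held 11 listed genes, of which 10 were tested. Called higher were 7 and lower 0, against 35.7% and 9.61% of all genes, with a median log2 fold change of 1.88. MAK rose by 5.67 (adjusted p = 6.56e-06), NEK2 by 4.70 (adjusted p = 0.000704), STK33 by 4.59 (adjusted p = 2.26e-05) and TESK1 by 2.80 (adjusted p = 2.46e-05). CAMK4, CSNK2A2 and TESK2, with 1.62, 1.05 and 1.47, were not called after quantile normalization, nor when calf 1 or any of the bulls was left out, each of which left 4 calls (after quantile normalization 21.1% of all genes were called higher). Without calf 2 there were 5 calls and without calf 3 there were 6. Of all 18115 genes, 6246 were called higher without calf 1, 6461 without calf 2 and 6859 without calf 3. Without bull 1, bull 2 or bull 3 the number was 6100, 6048 or 6034. CAMK4 and TESK2 lost their calls without the filter as well. MAK showed FPKM values of 0.576, 1.20 and 0.735 in the calves and 84.6, 88.7 and 103 in the bulls, and among the 10 kinases it was the only one with a calf mean below 1.

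**Figure D4:**
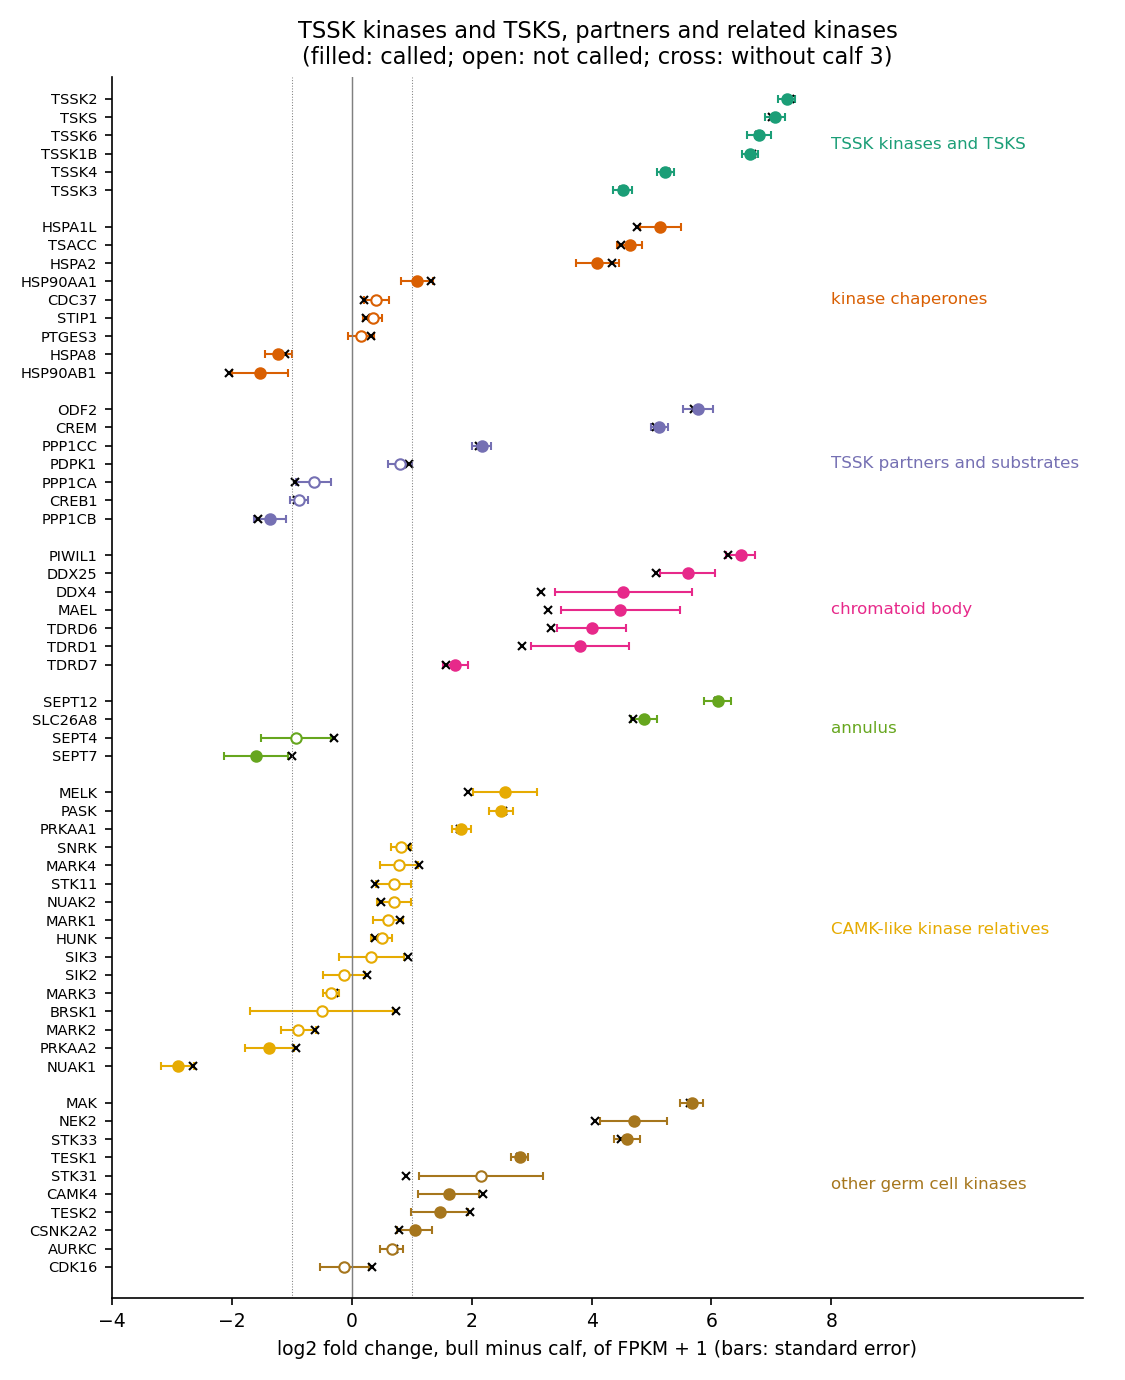
Log2 fold change (bull minus calf, FPKM + 1) with standard error of the TSSK kinases and TSKS and of 6 gene lists, filled where called, with a cross for the value without calf 3 and dotted lines at −1 and 1. The kinases and TSKS lie between 4.52 and 7.25, the chromatoid body genes between 1.73 and 6.49 and the relatives of AMP-activated kinase between −2.90 and 2.55.

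The genes most like each kinase were sought by the Euclidean distance between profiles of log2(FPKM + 1) over the 6 libraries, a measure of both level and pattern. TSSK1B was nearest to CCDC110 (distance 0.211), TMEM30C (0.364) and TEX49 (0.386). TSSK2 was nearest to ADAM3A (0.332), LEMD1 (0.354) and PDHA2 (0.366), of which PDHA2 is the testis form of a pyruvate dehydrogenase subunit. For TSSK3 the nearest were FANK1 (0.302), ZMYND15 (0.387) and FAM181A (0.436).

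TSSK4 lay nearest to PDZD9 (0.337), C17H4orf45 (0.368) and CCDC62 (0.391). For TSSK6 the distances were larger, with LRRC23 (0.586), TMCO2 (0.754) and SPESP1 (0.847). TSKS was nearest to ACTRT2 (0.246), an actin-related protein of the sperm head, followed by FAM71D (0.285) and TEX43 (0.386). Among the 6 genes the shortest distance was 0.464, between TSSK2 and TSKS, and the longest was 4.10, between TSSK3 and TSSK6. Between kinases the shortest was 0.899, for TSSK1B and TSSK2. With Ensembl transcripts only, the log2 fold change of CCDC110 was 0.81 instead of 6.74, that of LEMD1 0.78 instead of 7.24 and that of PDZD9 1.47 instead of 5.10, so their likeness to the kinases rests on assembled entries. The gene values of TSSK3, TSSK4 and TSSK6 include assembled entries themselves, so their own distances rest partly on these as well. With 2 groups of 3 libraries, such distances mostly reflect the level in bulls.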

How the data were processed

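Total RNA of 6 testis samples was sequenced after removal of ribosomal RNA with strand-specific libraries. The authors used Bowtie2 to take out ribosomal reads, TopHat2 for mapping and StringTie for assembly. For circRNAs the Methods name Cuffdiff and Ballgown, but which tool made the FPKM values of these gene and transcript tables is not given in the sources used here. The deposited FPKM values of genes and transcripts were used as they are, and the tables hold no counts. Among genes with low values, at most 3.02% lay at one common ratio to calf 1, so whole reads could not be recovered. The number of fragments behind a value is therefore unknown, though the paper lists the reads of each library. UMD3.1.1 is the build given by the authors, but the positions are printed as in the tables, where unplaced scaffolds and gene loci follow an ARS-UCD assembly.

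The analysis used R 4.3.3, limma 3.58.1 and the data.table package (1.17.8), and Python 3.11.15 with matplotlib 3.10.9 for figures. Values were transformed to log2(FPKM + 1). Features that reached an FPKM of 1 in 3 or more libraries entered a linear model of both groups (empirical Bayes with trend, two-sided, Benjamini-Hochberg over all features), and the procedure was tested on simulated data. Left-out libraries were removed after this filter, so that the same features were tested. P-values measure the spread between the animals. Alternatives covered the pseudocount, the filter, the scaling, the trend, library weights, the replicate number as a block and each library left out, and, added after seeing the data, a sum over Ensembl transcripts only.

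The genes and the lists were chosen with earlier results of these data known. From each list, called genes were named, at most 4 per direction, with others where 5 or fewer were left. For each kinase the 3 nearest profiles and the overlapping or nearest named genes were named. No sequences are shown.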

Additional observations from a re-analysis of the deposited data

How the results depend on the processing

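TSSK1B, TSSK2, TSSK3, TSSK4, TSSK6 and TSKS were called higher in bulls in all 17 alternative fits, and the largest adjusted p was 0.000771 (limma). The log2 fold change lay between 5.65 and 9.0 for TSSK1B, 6.34 and 10.34 for TSSK2, 3.66 and 5.85 for TSSK3, 4.33 and 6.69 for TSSK4, 6.04 and 8.01 for TSSK6, and 6.13 and 10.08 for TSKS. Quantile normalization moved the median log2 fold change of all genes from 0.43 to −0.26 and the calls from 6474 higher and 1741 lower to 3827 and 4538, and on that scale the 6 genes lay between 3.66 and 6.34. The order of TSSK6 and TSSK1B by log2 fold change turned with pseudocounts of 0.1 and 0.01. It also turned without bull 1 (6.61 for TSSK6 and 6.67 for TSSK1B). With Ensembl transcripts only, TSSK3, TSSK4 and TSSK6 had 4.97, 5.75 and 7.07, which put TSSK6 level with TSKS (7.07). The number of other germ cell kinases called was 4 after quantile normalization and between 4 and 6 with a library left out, instead of 7, and CAMK4, CSNK2A2 and TESK2 lost their calls without calf 1 or any one bull. With a library left out, between 6034 and 6859 of all genes were called higher, against 6474 with all libraries. The number of brain markers called was 0, and 3 without calf 3. Replicate numbers did not pair the animals: the correlations of same-numbered calves and bulls, as deviations from their group means, were 0.0277, 0.0246 and 0.0341, although each animal correlated best with the animal of its own number, a hint from the data and not the design. With the replicate number as a block, 8128 genes and 10087 transcripts were called, against 8215 and 10255 without it, and the block changed no call of the 6 genes. The number of fragments behind the low values in calves is unknown.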
